A study of Mus musculus with 13 samples.

Results

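The Reg genes encode small secreted proteins with a C-type lectin fold. The members described here are Reg1, Reg3b, Reg3g and Reg4, found by their symbols, and they are 4 of the 16204 genes in the files. The cells came from mouse small intestine and were read by CEL-seq, a 3' end method in which each transcript carries a barcode for its cell and another for the molecule. All mice were Lgr5-CreERT2 C57Bl6/J crossed to a Rosa26LSL-YFP reporter, and the 5-day, 3-week and 8-week times count from the tamoxifen injection. In this design only cells that express Lgr5, a receptor of crypt base stem cells, and their later offspring turn on YFP; those are the traced cells. The 13 libraries fall into 8-week traced CD24+ cells (3 libraries), 8-week traced cells without a CD24 gate (1), 3-week traced CD24+ cells (1), 8-week non-traced CD24+ cells (2), 3-week non-traced CD24+ cells by its label (1) and 5-day traced cells (5). The non-traced cells come from mice of the same cross, and CD24 is a surface protein used as a sorting gate. The labels give no age and do not say which libraries came from separate mice, so p-values measure only the spread between these libraries, which may be technical.

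Reg3g is a bactericidal lectin that binds peptidoglycan of Gram-positive bacteria and helps to keep the inner mucus free of them, and Reg3b is its close relative with activity against Gram-negative bacteria. Both are textbook targets of interleukin 22 signalling through STAT3 in the gut epithelium. Reg1 was first described as a regenerating protein of the exocrine pancreas and is also made by intestinal epithelium. Reg4 is a more distant relative known from Paneth, goblet and enteroendocrine cells, and in mouse it has been used to mark deep crypt secretory cells of the colon.

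Reg1, Reg3b and Reg3g lie close together. In the RefSeq annotation of GRCm38.p6, Reg3b is at chr6:78370885-78373466, Reg1 at chr6:78425983-78428668 and Reg3g at chr6:78466269-78468874, inside a run of 6 Reg genes that spans 98.0 kb. Reg4 lies apart, at chr3:98222138-98236748. The 4 promoters are printed here because members that share a pattern of cells can be compared letter by letter; each runs from 250 bases before to 50 bases after the RefSeq start, 5' to 3' on the gene's own strand. Capitals mark TATAAA (the TATA box), TTCNNNGAA (the core of STAT binding sequences) or AGATAA (a core of GATA factor sequences), searched on both strands with no overlap between the matches.
Reg1, chr6:78425733-78426032, plus strand: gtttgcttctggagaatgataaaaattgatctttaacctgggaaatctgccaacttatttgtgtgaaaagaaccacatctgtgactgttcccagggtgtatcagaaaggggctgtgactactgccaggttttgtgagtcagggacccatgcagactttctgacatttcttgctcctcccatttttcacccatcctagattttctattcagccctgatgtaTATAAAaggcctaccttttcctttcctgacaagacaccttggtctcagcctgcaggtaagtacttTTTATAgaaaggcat
Reg3b, chr6:78370635-78370934, plus strand: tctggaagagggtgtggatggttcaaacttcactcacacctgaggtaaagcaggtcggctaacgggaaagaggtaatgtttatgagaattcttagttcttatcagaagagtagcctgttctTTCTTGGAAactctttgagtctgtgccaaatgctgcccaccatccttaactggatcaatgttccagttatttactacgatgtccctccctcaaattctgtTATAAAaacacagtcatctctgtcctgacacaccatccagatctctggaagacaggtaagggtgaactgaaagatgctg
Reg3g, chr6:78468825-78469124, minus strand: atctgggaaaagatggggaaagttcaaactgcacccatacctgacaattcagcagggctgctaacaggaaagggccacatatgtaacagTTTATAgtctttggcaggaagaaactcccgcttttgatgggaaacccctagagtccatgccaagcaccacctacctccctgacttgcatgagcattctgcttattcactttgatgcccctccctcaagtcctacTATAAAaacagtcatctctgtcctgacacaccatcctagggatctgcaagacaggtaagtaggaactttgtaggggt
Reg4, chr3:98221906-98222205, plus strand: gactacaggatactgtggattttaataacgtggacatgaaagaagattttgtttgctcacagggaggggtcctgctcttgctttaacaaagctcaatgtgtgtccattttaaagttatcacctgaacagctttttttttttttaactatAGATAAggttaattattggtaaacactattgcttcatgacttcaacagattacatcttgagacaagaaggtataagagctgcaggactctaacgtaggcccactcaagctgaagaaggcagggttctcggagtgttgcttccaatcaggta

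TATAAA began 30, 29 and 27 bases before the start in Reg1, Reg3b and Reg3g, and 13.6% of 32851 RefSeq promoters of this length hold it on either strand. It also matched on the opposite strand 161 bases before the start of Reg3g and 35 bases past the start of Reg1. TTCNNNGAA matched only the Reg3b window, 129 bases before the start, and 8.3% of all promoters hold it. AGATAA matched only the Reg4 window, 101 bases before the start, and 11.2% of all promoters hold it. Reg3b and Reg3g share a run of 29 identical bases that begins 20 bases before the start of each, acagtcatctctgtcctgacacaccatcc, whereas the longest run shared by any other pair is 6 to 10 bases. A match is a string of letters and no measured binding site. The protein-coding GENCODE transcripts of Reg3b and Reg3g share at most 35 identical bases in a row, and 20 in their last 500 bases. How reads that fit several genes were counted is not given in the sources used here, so a small exchange of counts between these 2 genes cannot be told apart from expression.

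Cells with at least 3000 transcripts were kept, 892 of 1248 barcodes, with 50 to 87 cells per library and library medians of 5412 to 14458 transcripts. Levels are transcripts per 10000 and are read across cells and libraries, not between genes. Cell classes were cut by summed marker genes without any Reg gene: 72 Paneth (at least 1000 marker transcripts per 10000), 79 goblet (250), 114 endocrine (25), 30 absorptive (150) and 151 tuft cells (25). Another 439 cells passed none of these cuts and 7 passed several. Each class is a range of marker level: 19 to 87 cells lay within 0.5 to 2 times a cut. In the class that each list defines, its median was 3671 per 10000 for Paneth, 595 for goblet, 648 for endocrine, 400 for absorptive and 122 for tuft markers. The cells of no class had medians of 14.1 per 10000 for stem cell markers and 15.5 for cell cycle markers, against 15.4 for Paneth and 18.2 for absorptive markers. Of 10 pancreatic acinar markers 3 were in the files, at 0 to 0.0309 per 10000 over the libraries.

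Some libraries stand apart. The combined table gives the 3-week non-traced library a name with YFP and without CD24, against its label, so it is called by that label only. In 5-day replicate 4, the cells of barcodes 49 to 96 held the endocrine hormone Ghrl at a median of 47.3 per 10000 in 41 cells, against 2.23 in the 27 cells of barcodes 1 to 48. Their Reg1 and Reg3b medians were 2.20 and 5.37 per 10000, against 0 and 0. One barcode of 8-week non-traced CD24+ replicate 1 held 145041 transcripts, against 64869 in the next largest. All 13 libraries use the same 96 barcode names, and no pair of cells held identical values. The male-specific Ddx3y was 0.217 to 0.408 per 10000 in the 5-day libraries and 0 in the later ones, and the female-specific Xist was 0 to 0.0131 in the 5-day and 0.816 to 1.79 in the later libraries, so time and sex cannot be told apart.

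Reg transcripts were concentrated in few cells. Reg1 had 1681 transcripts in 218 cells, with 50% of them in 6 cells. Reg3b had 4443 in 310 cells and 50% in 11, and Reg3g had 7224 in 519 cells and 50% in 25. Reg4 had 8136 transcripts in 325 cells, 50% of them in 23. The highest single value, 694 Reg3b transcripts in an absorptive cell, lies below the point at which the molecular barcodes saturate.

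**Figure D1:**
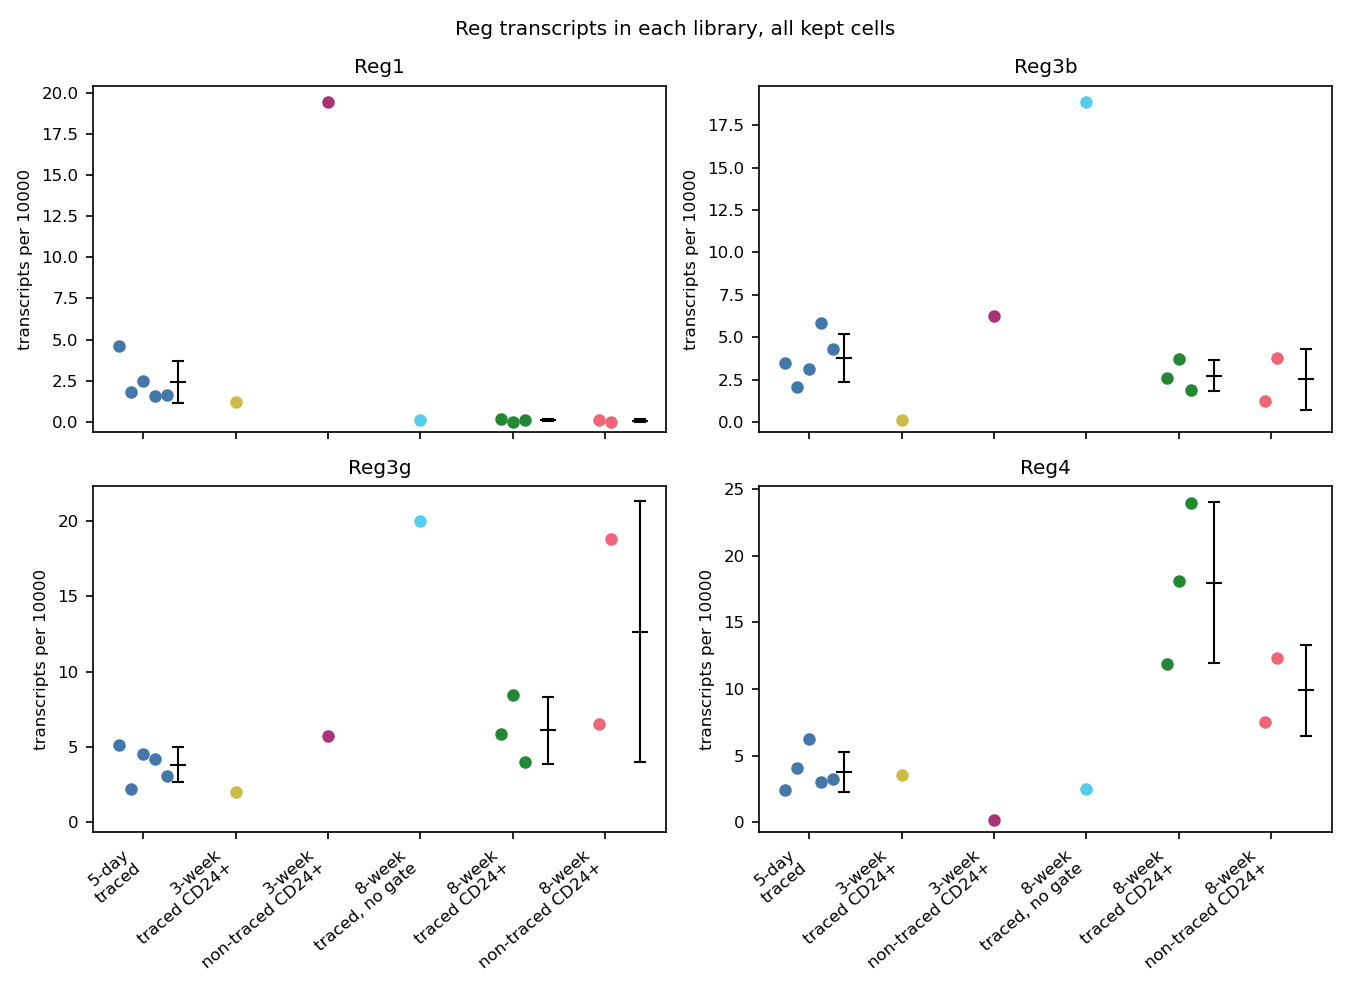
Level of each Reg gene in each library over all kept cells, in transcripts per 10000, with 1 point per library and the groups along the horizontal axis. Reg1 is highest in the 3-week non-traced library (19.4), Reg3b and Reg3g in the 8-week traced library without a gate (18.9 and 20.04), and Reg4 in 8-week traced CD24+ replicate 3 (24.0).

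Reg1 was highest in absorptive cells. In the 3 libraries with at least 3 cells of each class, Reg1 stood in absorptive cells at 54.0 per 10000 in 5-day replicate 1, 25.2 in 5-day replicate 3 and 68.7 in the 3-week non-traced library. In the cells of no class of the same libraries it stood at 1.60, 0.416 and 0.785. Every absorptive value lies above every value of the cells of no class, and 66.0% of all genes tested moved 1 way in all 3 libraries. The log2 fold change was 5.58 ± 0.27 (SE; adjusted p = 1.91e-15, edgeR's quasi-likelihood test with library as a block), higher in 3 of 3 libraries. Reg3b and Reg3g were also higher in absorptive cells, so that the 3 members tested all rose; 23.2% of the 2550 genes tested were called higher. Without the 3-week non-traced library the Reg1 log2 fold change was 5.38 (adjusted p = 3.91e-41, edgeR). That fit leaves 2 libraries, which give little measure of the spread between libraries, so its smaller p adds no support.

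Reg1 was detected in 22 of 30 absorptive cells (73.3%; 95% exact binomial interval 54.1% to 87.7%) and in 0 of 151 tuft cells, which allows a share of up to 1.99% of cells with a Reg1 transcript read at this depth (3 counts of the total; exact binomial upper bound 2.41%). Intervals and floors cover counting error only and do not limit the share of cells that express the gene. In Paneth, goblet and endocrine cells it was found in 12.5%, 8.86% and 8.77% of cells, at most 2.71, 9.12 and 9.20 per 10000. After thinning every cell to 3000 transcripts, 66.7% of absorptive cells, 5.56% of Paneth cells and 19.8% of the cells of no class still held it. Median depths were 7948 transcripts in absorptive, 18080 in Paneth and 9121 in cells of no class, so the deepest class had a low share. By median over libraries the order was absorptive (54.0 per 10000), then no class (0.416), then Paneth, goblet, endocrine and tuft cells at 0. Below the absorptive class the library ranges overlap.

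Above 100 transcripts per 10000, the Reg1-rich and the Reg3b-rich absorptive cells were different cells. The 5 absorptive cells with over 100 Reg1 transcripts per 10000 held 131 to 306 of Reg1 and 0 to 9.68 of Reg3b. The 4 absorptive cells with over 100 Reg3b transcripts per 10000 held 147 to 353 of Reg3b and 0 to 1.30 of Reg1. These cells were picked after their values were seen, come from 4 libraries, and carry no test. Of the 22 Reg1-positive absorptive cells, 19 also had Reg3b, some of these rich cells included. An absorptive cell of 5-day replicate 2, below 100 in both genes, held 62.7 of Reg1 and 82.0 of Reg3b per 10000. It held 56.2% of the Reg1 and 63.5% of the Reg3b transcripts of its library.

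Reg3b and Reg3g shared the absorptive cells and part of the cells of no class. Reg3b in absorptive cells was 38.6 per 10000 in 5-day replicate 1, 35.0 in 5-day replicate 3 and 21.6 in the 3-week non-traced library, against 1.40, 0.0519 and 0.610 in their cells of no class. Reg3g was 26.6, 29.7 and 18.7 in the absorptive cells of those libraries, against 4.08, 1.78 and 1.15 in their cells of no class. Neither gene's groups overlap. The log2 fold change was 5.66 ± 0.40 for Reg3b (SE; adjusted p = 3.97e-12, edgeR) and 3.44 ± 0.26 for Reg3g (adjusted p = 1.50e-11), each higher in 3 of 3 libraries. In both, a single cell could carry much of a library: 1 absorptive cell of the 3-week non-traced library held 82.9% of all its Reg3b transcripts.

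Paneth cells held Reg3g with little Reg3b. Reg3g stood in Paneth cells at 8.35, 13.4 and 1.21 per 10000 in 8-week traced CD24+ replicates 1 to 3, at 18.7 and 60.8 in the 2 libraries of 8-week non-traced CD24+ cells, and at 2.92, 4.16 and 5.37 in 5-day replicates 2, 3 and 5. In the cells of no class of these libraries it stood at 6.40, 11.8 and 7.95, at 9.39 and 16.4, and at 1.70, 1.78 and 2.97. Paneth cells were higher in 7 of 8 libraries, all but 8-week traced CD24+ replicate 3, and the ranges overlap. The fitted log2 difference was 1.57 ± 0.34 (SE; adjusted p = 0.00181, edgeR), and with Reg4 it made 2 of 3 tested members higher, where 18.6% of 3234 genes were called higher. This call depends on the scaling: without the composition factors of TMM the median of all genes was -1.26 in place of -0.08, in cells where Paneth markers took a median of 3671 of 10000 transcripts. On such plain totals the Reg3g difference was 0.41 (adjusted p = 0.276). The split of all called genes was then 153 higher and 2690 lower, in place of 601 and 504.

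Reg3b in Paneth cells ranged from 0 to 8.06 per 10000 over the same 8 libraries, against 0.0519 to 6.95 in cells of no class, higher in 3 of 8. Its log2 difference was -0.44 ± 0.56 (SE; adjusted p = 0.573, edgeR), and on plain totals -1.63 (adjusted p = 0.0150). Of 63 Paneth cells with Reg3g, 19 also had Reg3b (30.2%). Among absorptive cells 23 of 27 did (85.2%), and among cells of no class 171 of 294 (58.2%). In the other direction, 90.5% of Reg3b-positive Paneth cells, 92.0% of absorptive cells and 85.5% of the cells of no class with Reg3b also had Reg3g. The ratio of Reg3b to Reg3g transcripts was 0.103 in Paneth cells, 0.126 in goblet cells, 0.762 in cells of no class and 1.23 in absorptive cells. By library it was 0 to 0.226 in Paneth and 1.16 to 1.45 in absorptive cells, with no overlap between them. The absorptive ratios rest on single cells. In 5-day replicates 1 and 3 and the 3-week non-traced library, 1 absorptive cell held 127 of 168, 155 of 186 and 192 of 221 Reg3b transcripts. Over all absorptive cells 1 cell held 49.7% of Reg3b. The median absorptive cell had 5.82 Reg3b and 9.16 Reg3g transcripts per 10000. In cells of no class it was 0.0292 to 1.53 by library, which spans both.

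By median over libraries the order for Reg3b was absorptive (35.0 per 10000), no class (4.12), tuft (0.753), Paneth (0.737), endocrine (0.475) and goblet cells (0.263). Only the absorptive class stands clear of its neighbour in that order. For Reg3g it was absorptive (26.6), Paneth (6.86), no class (4.52), tuft (2.17), goblet (1.85) and endocrine cells (0.532), and the library ranges of all neighbours overlap.

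**Figure D2:**
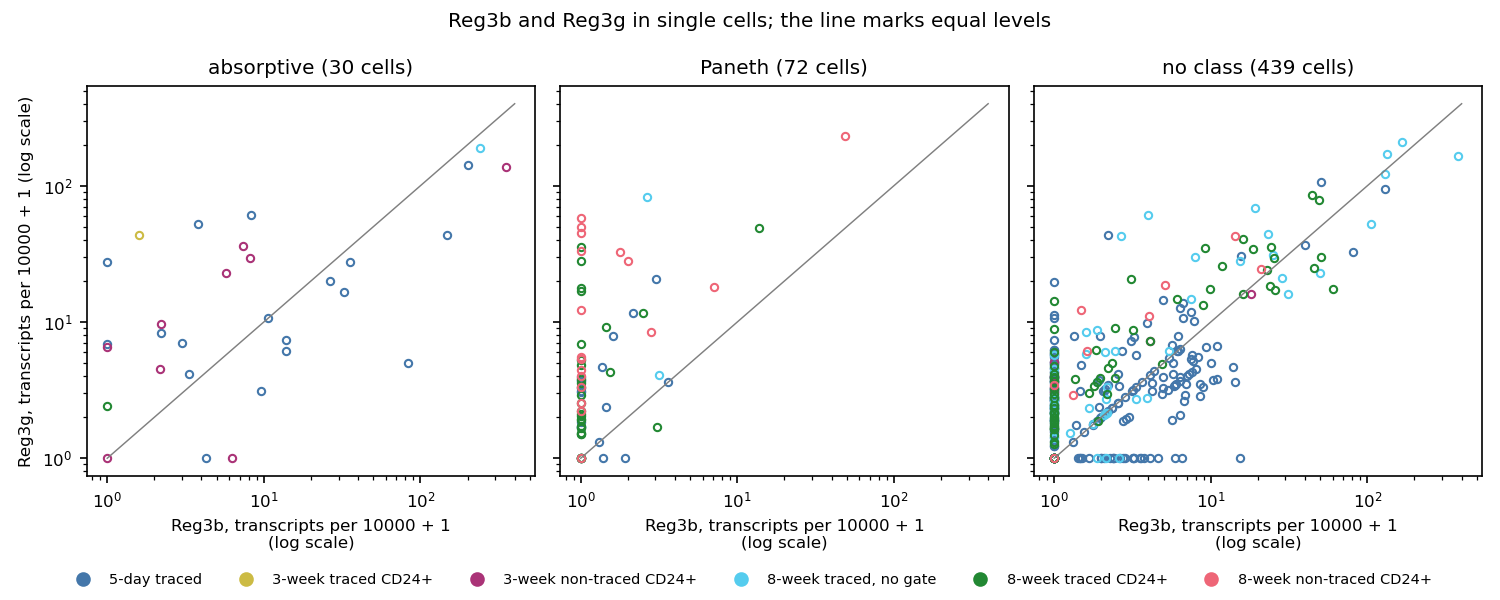
Reg3b against Reg3g in single absorptive (30), Paneth (72) and no-class (439) cells, in transcripts per 10000 on log axes after adding 1. Both genes were found in 23 of 30 absorptive cells, at widely spread levels, and Paneth cells spread along the Reg3g axis, where 44 of 72 had Reg3g without Reg3b.

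Reg3b and Reg3g were lower in endocrine and tuft cells than in cells of no class, and Reg3g in goblet cells did not pass the test. Reg3g in goblet cells was 0.311 to 15.4 per 10000 over 10 libraries, against 0.428 to 15.1 in their cells of no class, a log2 difference of -0.34 (adjusted p = 0.327, edgeR). In endocrine cells Reg3g was 0 to 1.41 per 10000 over 9 libraries and below the cells of no class in each, with a log2 difference of -3.47 ± 0.30 (SE; adjusted p = 6.47e-08). Reg3b had a log2 difference of -2.68 ± 0.55 there (adjusted p = 0.00102, edgeR), and was higher than in the cells of no class in 2 of 9 libraries. The Reg3b call held in 18 of 19 alternatives, with an adjusted p of up to 0.0674. Reg3g and Reg3b counted as lower among 21.8% of 2984 genes. In tuft cells, chemosensory cells, Reg3g fell by 2.03 ± 0.31 (adjusted p = 1.74e-05), Reg3b by 1.70 ± 0.47 (adjusted p = 0.00591) and Reg4 by 2.24 ± 0.56 (adjusted p = 0.00272), where 21.9% of 3645 genes were called lower. The Reg4 call was lost with DESeq2 (-1.14, adjusted p = 0.311) and the Reg3b call with at least 5000 transcripts per cell (-1.46, adjusted p = 0.0616). Reg3g was below the cells of no class in 7 of 7 libraries, Reg3b and Reg4 in 5 of 7 each. These comparisons share their cells of no class.

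**Figure D3:**
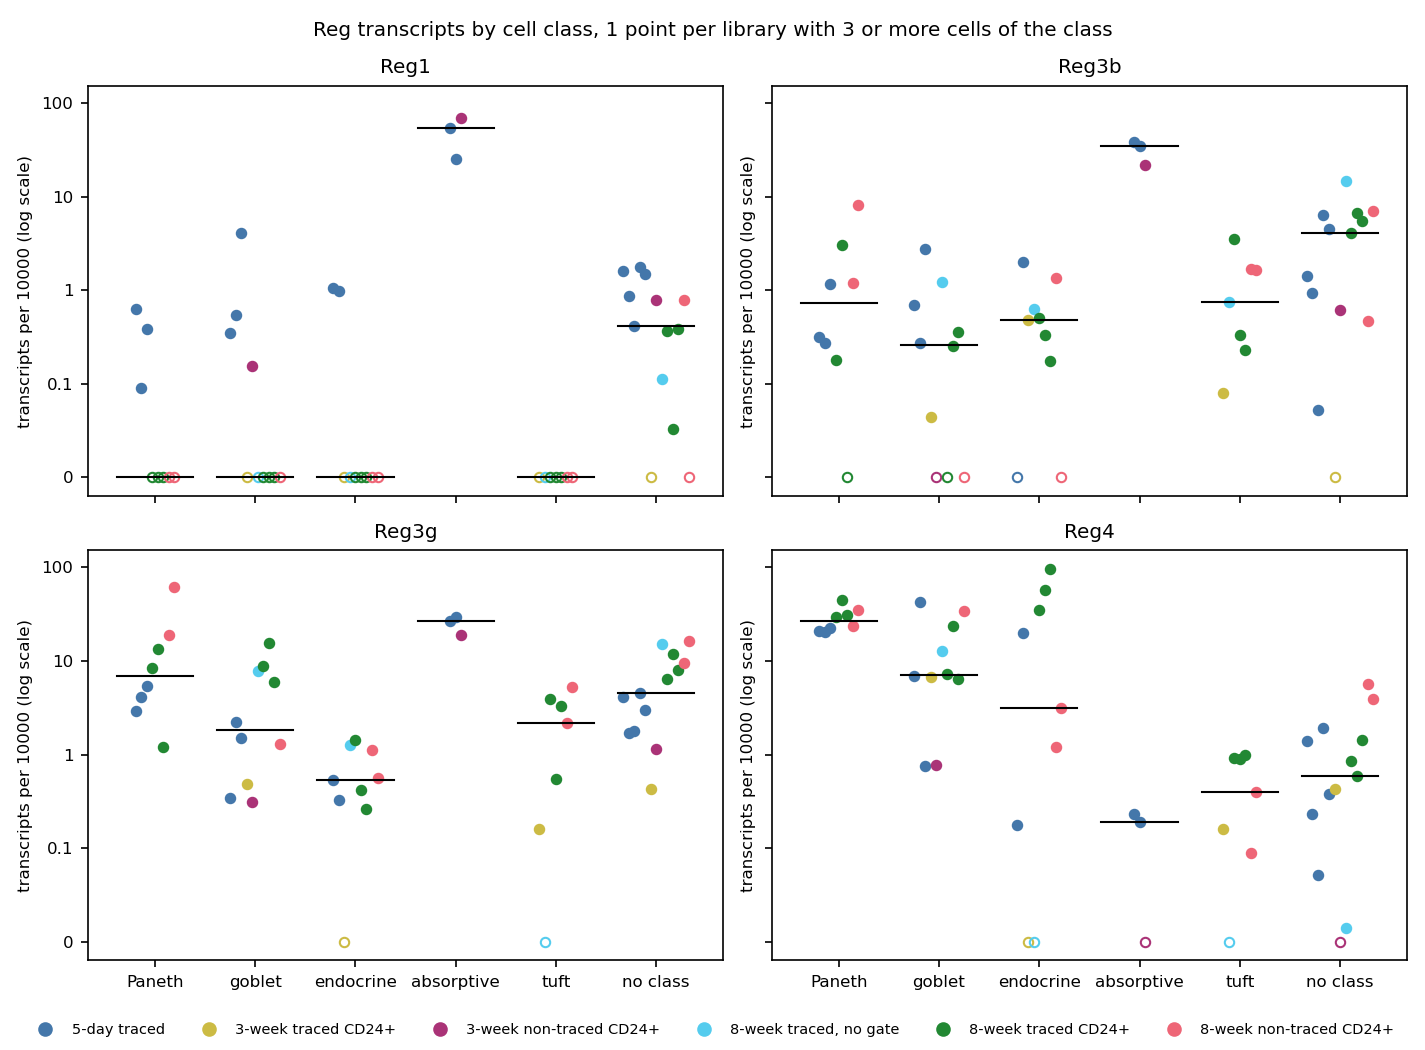
Level of each Reg gene by cell class, in transcripts per 10000 on a log axis, with 1 point per library that had at least 3 cells of the class, open points at 0 and a line at the median over libraries. Reg1, Reg3b and Reg3g are highest in absorptive cells (medians 54.0, 35.0 and 26.6), and Reg4 is highest in Paneth cells (26.7) and lowest in absorptive cells (0.189).

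Reg4 was high in Paneth cells and near 0 in absorptive cells. In Paneth cells it was 29.7, 44.2 and 30.6 per 10000 in 8-week traced CD24+ replicates 1 to 3, 23.6 and 35.0 in the 8-week non-traced CD24+ libraries, and 20.9, 20.3 and 22.5 in 5-day replicates 2, 3 and 5. The cells of no class of these libraries held 0.0520 to 5.61. All 8 Paneth values lie above all 8 values of the cells of no class. The log2 fold change was 6.07 ± 0.52 (SE; adjusted p = 8.02e-08, edgeR), higher in 8 of 8 libraries, a same direction in every library that 62.3% of genes showed, and 4.91 on plain totals. Every one of the 72 Paneth cells had Reg4 (100%; exact binomial interval 95.01% to 100%), at 0.575 to 147 per 10000 with a median of 24.7. After thinning to 3000 transcripts 94.4% still had it.

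Goblet cells had less uniform Reg4. Its level was 7.18, 23.4 and 6.46 per 10000 in 8-week traced CD24+ replicates 1 to 3, 12.7 in the ungated 8-week library and 6.65 in the 3-week traced library. It was 34.5 in 8-week non-traced replicate 1, 0.781 in the 3-week non-traced library, and 6.91, 42.9 and 0.749 in 5-day replicates 2, 3 and 5. The values spread widely, and each lies above the cells of no class of its own library. The log2 fold change was 4.56 ± 0.59 (SE; adjusted p = 3.36e-06, edgeR), higher in 10 of 10 libraries, and 4.24 on plain totals, which move the median of all genes to -0.31 in place of -0.02. Here 38.5% of 2268 genes were called in either direction. Reg4 was found in 47 of 79 goblet cells (59.5%; 47.9% to 70.4%), and in 13.3% of absorptive cells at 1 transcript in each. Tuft cells had it in 25.2% and cells of no class in 25.5%, at most 6.76 and 34.6 per 10000, with median depths of 7487 and 9121 transcripts. How much of such low counts is free RNA was not tested. By median over libraries the order for Reg4 was Paneth (26.7 per 10000), goblet (7.04), endocrine (3.15), no class (0.586), tuft (0.397) and absorptive cells (0.189), and the ranges of neighbours overlap.

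Between Paneth and goblet cells of the same 7 libraries, Reg4 averaged 27.4 ± 8.47 per 10000 in Paneth cells and 17.5 ± 16.3 in goblet cells (SD, n = 7 libraries). The fitted log2 difference was 2.13 ± 0.47 (SE; adjusted p = 0.00239, edgeR), with Paneth cells higher in 5 of 7. Reg3g averaged 7.72 ± 6.27 in Paneth cells and 5.10 ± 5.49 in goblet cells, with a fitted difference of 1.57 ± 0.45 (adjusted p = 0.0166), higher in 4 of 7. Both tested members were called, where 22.5% of 591 genes were called in either direction. On plain totals, where the median of all genes is -1.35 in place of -0.06, Reg4 differed by 0.85 (adjusted p = 0.0350) and Reg3g by 0.25 (adjusted p = 0.534); 33 genes were then higher and 534 lower, against 68 and 65.

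**Figure D4:**
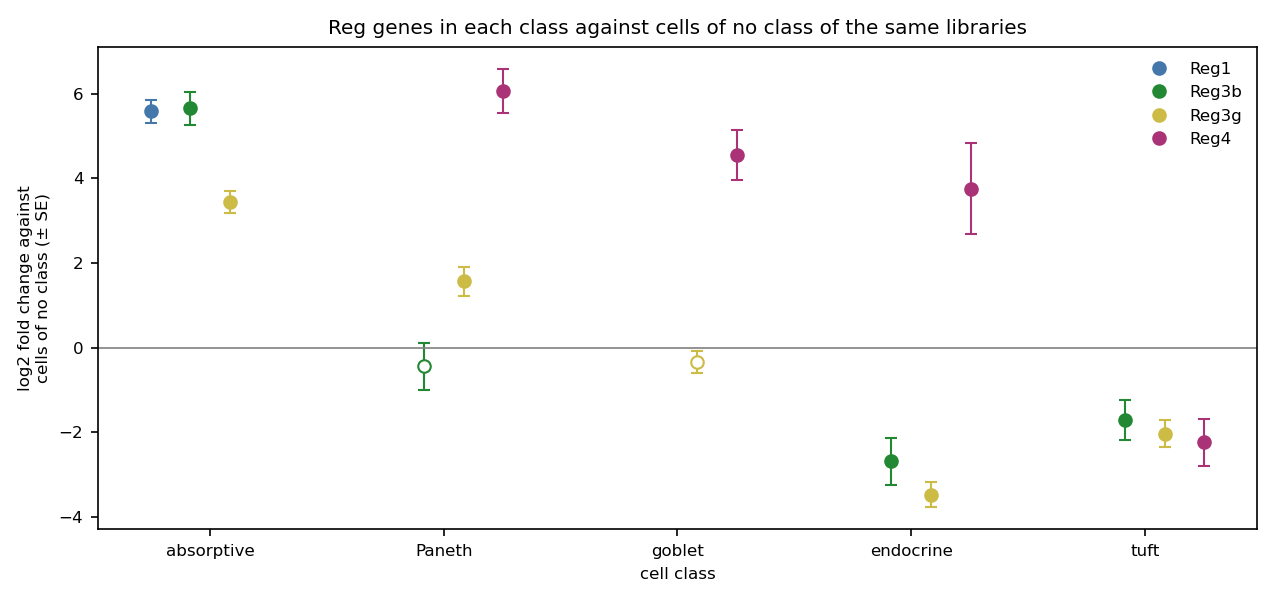
Fitted log2 fold change of each Reg gene in absorptive, Paneth, goblet, endocrine and tuft cells against cells of no class, with bars of 1 SE. Filled points passed the adjusted threshold of 0.05, open points did not, and members that were not tested have no point; Reg4 in Paneth cells (6.07) and Reg3b in absorptive cells (5.66) are highest, and Reg3g in endocrine cells (-3.47) is lowest.

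Reg4 in endocrine cells differed widely between libraries. Its level was 34.8, 57.3 and 95.7 per 10000 in 8-week traced CD24+ replicates 1 to 3, 1.21 and 3.15 in the 8-week non-traced CD24+ libraries, and 0.177 and 19.7 in 5-day replicates 2 and 5. It was 0 in the ungated 8-week library and in the 3-week traced library. Against the cells of no class the log2 fold change was 3.76 ± 1.08 (SE; adjusted p = 0.0102, edgeR), higher in 4 of 9 libraries, where 18.4% of 2984 genes were called higher. Leaving out any 1 of the 3 libraries of 8-week traced CD24+ cells gave an adjusted p of 0.0569 to 0.0606. The high libraries are 8-week traced CD24+ replicates 1 to 3 and 5-day replicate 5. Few cells set these levels: 2 of 19, 5 of 19, 4 of 17 and 1 of 3 endocrine cells had at least 30 Reg4 transcripts per 10000.

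The Reg4-rich endocrine cells were rich in Chga, the chromogranin of hormone granules. Of 114 endocrine cells, 12 had at least 30 Reg4 transcripts per 10000, with a median of 231 and a range of 32.6 to 977. Their medians were 234 per 10000 for Chga, 538 for Chgb, 48.8 for Tac1 (the substance P precursor) and 12.2 for Tph1 (the rate-limiting enzyme of serotonin synthesis), against 2.81, 42.9, 0 and 0 in the other 102. The hormone genes Gcg, Gip and Sst had medians of 0 in them, against 0, 1.42 and 0 in the other 102. Tac1, Tph1 and Chga are textbook genes of enterochromaffin cells. Single cells among the other 102 reached 296 per 10000 for Tac1 and 60.1 for Tph1, against 137 and 65.1 among the 12. The cell with the highest Reg4, 977, had Tac1 at 0 and Tph1 at 7.05 per 10000. The cut at 30 was chosen after the values were seen.

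Of 55 endocrine cells of the 8-week traced CD24+ libraries, 18 had Chga at 50 or more (32.7%; 6, 7 and 5 by library), and those 18 held 99.1% of the Reg4 transcripts. Of these 18 cells, 11 had at least 30 Reg4 transcripts per 10000, and the 18 ranged from 0 to 977. The other 37 endocrine cells of these libraries had at most 3.88 Reg4 transcripts per 10000. Of 31 endocrine cells of the 8-week non-traced CD24+ libraries, 3 had Chga at 50 or more (9.68%; 1 and 2 by library), with 0 to 22.8 Reg4 transcripts per 10000. Reg4 over all endocrine cells averaged 62.6 ± 30.8 per 10000 in the traced and 2.22 ± 1.40 in the non-traced libraries (SD, n = 3 and 2). The groups do not overlap, as in 25.5% of genes, and the log2 fold change was 4.93 ± 0.60 (SE; adjusted p = 0.00301, edgeR), where 0.194% of 3086 genes were called. The share of Chga-rich cells moves with the same groups, and its part in the difference was not tested. This comparison was added after the data had been examined.

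**Figure D5:**
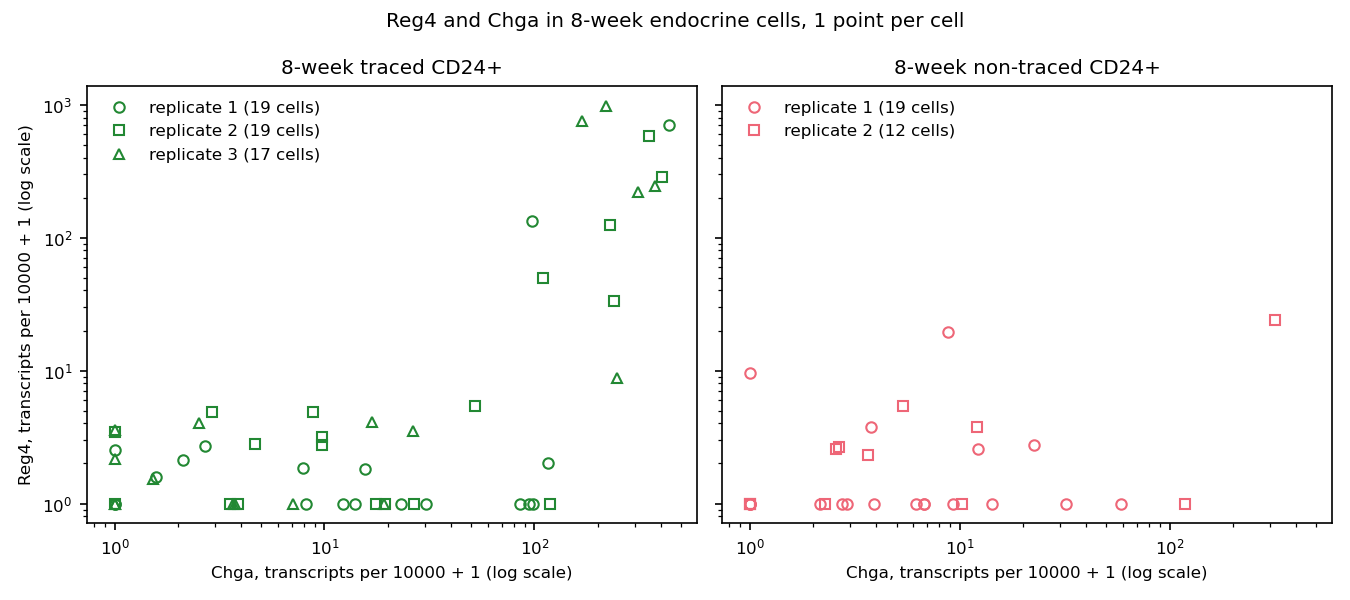
Reg4 against Chga in single endocrine cells of the 8-week libraries, traced CD24+ on the left and non-traced CD24+ on the right, in transcripts per 10000 on log axes after adding 1. The traced panel holds 11 cells with Reg4 at 30 or more, all with Chga at 50 or more, and the non-traced panel holds 0.

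Across all cells, the 8-week traced CD24+ libraries were set against the 8-week non-traced CD24+ libraries, which share the gate and the time. Their class make-up differed. Tuft cells made up 20.8% of traced and 54.4% of non-traced cells, and cells of no class 32.6% and 6.12%. The part of this make-up in the differences below was not tested. Reg4 was 11.9, 18.1 and 24.0 per 10000 in traced and 7.50 and 12.3 in non-traced libraries. Reg3g was 5.86, 8.44 and 4.00 in traced and 6.53 and 18.8 in non-traced libraries. The groups overlap in both genes. The log2 differences were 0.87 ± 0.29 for Reg4 (SE; adjusted p = 0.131, edgeR) and -1.07 ± 0.36 for Reg3g (adjusted p = 0.126). Reg1, at 0.0155 to 0.177 in traced and 0 and 0.133 in non-traced libraries, and Reg3b, at 1.91 to 3.71 and 1.24 and 3.77, had adjusted p of 0.758 and 0.899. None of the 4 members was called with edgeR or with DESeq2, where 4.23% of 8762 genes were called with edgeR; 1583 genes had an unadjusted p under 0.05.

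Reg3g in Paneth cells did not overlap between these groups. It averaged 7.64 ± 6.13 per 10000 in traced and 39.8 ± 29.8 in non-traced Paneth cells (SD, n = 3 and 2; 31 and 18 cells). The log2 difference was -2.41 ± 0.53 (SE; adjusted p = 0.0572, edgeR), which missed the threshold, where 0.161% of 2483 genes were called and 22.9% did not overlap. Without non-traced replicate 1 the difference was -3.01 and without non-traced replicate 2 it was -1.45; both passed the threshold, but each leaves 1 non-traced library, which is assumed to vary like the traced ones, and they add no support. Without traced replicate 3 it was -1.84 (adjusted p = 0.199). With a batch block in which replicate 1 of both groups forms 1 batch, it was -2.34 (adjusted p = 0.0661, edgeR). The batches were read from set names in the combined table, and no label gives them. In non-traced replicate 2, 1 of 7 Paneth cells held 63.4% of the Reg3g transcripts, and the level without that cell was 26.7 per 10000. Reg3b was 0 to 3.02 per 10000 in traced and 1.19 and 8.04 in non-traced Paneth cells, with overlap, and its log2 difference was -2.81 ± 0.79 (SE; adjusted p = 0.219, edgeR; 0.0490 under the batch block). Reg4 in the same cells differed by 0.26 (adjusted p = 0.895), and Reg1 had 0 counts in both groups.

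The 8-week traced CD24+ libraries differed from the 5-day traced libraries in Reg1 and Reg4. Reg1 was 0.177, 0.0155 and 0.128 per 10000 at 8 weeks and 4.62, 1.79, 2.49, 1.59 and 1.61 at 5 days. Reg4 was 11.9, 18.1 and 24.0 at 8 weeks and 2.38, 4.05, 6.24, 3.03 and 3.26 at 5 days. Neither pair of groups overlaps, and 36.4% of genes tested do not. Reg1 fell by 4.37 ± 0.48 (log2, SE; adjusted p = 7.99e-06, edgeR) and Reg4 rose by 2.19 ± 0.27 (adjusted p = 2.73e-05), where 37.1% of 8514 genes were called. Reg3b differed by -0.55 (adjusted p = 0.121) and Reg3g by 0.59 (adjusted p = 0.0654; 0.68 and 0.0471 on plain totals).

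The gate, the sex and the class make-up differ between these groups together with the time. Of 221 cells of the 8-week traced CD24+ libraries 31 were Paneth, 55 endocrine and 1 absorptive, against 21, 13 and 18 of 332 cells at 5 days. Fewer cells of a class and less RNA per cell cannot be told apart in sums over a library. The single ungated 8-week traced library, which shares the sort of the 5-day libraries as far as the labels say, held 0.0968 Reg1 and 2.46 Reg4 transcripts per 10000. Its Reg1 lies with the 8-week CD24+ libraries, and its Reg4 lies inside the 5-day range. With 1 library there is no test.

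Within the cells of no class, where cells above the Paneth, endocrine and absorptive cuts are set aside, the time comparison gave another picture. Reg3g was 6.40, 11.8 and 7.95 per 10000 at 8 weeks (traced CD24+) and 4.08, 1.70, 1.78, 4.52 and 2.97 at 5 days, with no overlap, as in 26.1% of 7310 genes. Its log2 fold change was 1.39 ± 0.27 (SE; adjusted p = 0.00120, edgeR), and Reg1 fell by 2.30 ± 0.46 (adjusted p = 0.00140), where 21.5% of genes were called. Absorptive markers moved with Reg1 in these cells, at 6.89, 6.25 and 5.34 per 10000 in the 8-week traced CD24+ libraries and 22.2 to 48.99 at 5 days, and their part in the Reg1 difference was not tested. The Paneth marker Lyz1 also differed in these cells, at 9.24 ± 3.79 per 10000 at 8 weeks and 3.17 ± 0.42 at 5 days (SD, n = 3 and 5 libraries). The part of Paneth RNA below the cut in the Reg3g difference was not tested. Reg3b differed by 0.87 (adjusted p = 0.340) and Reg4 by -0.03 (adjusted p = 0.987). Without 5-day replicate 4, whose barcodes divide as described, the values were 1.59 for Reg3g (adjusted p = 3.02e-04) and -2.13 for Reg1 (adjusted p = 0.00285). On plain totals the median of all genes was 0.12 and 972 genes were higher and 605 lower, in place of 721 and 849. This comparison was added after the data had been examined.

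In the traced libraries, cells of no class with high Reg3g were a minority. Their share was larger at 8 weeks than at 5 days, and how much of the Reg3g difference they carry was not tested. Cells of no class with at least 10 Reg3g transcripts per 10000 made up 28.1%, 34.8% and 17.6% of the 8-week traced CD24+ libraries, 26.7% of the ungated 8-week library, and 8.20%, 4.26%, 2.44%, 3.12% and 4.17% of the 5-day libraries. For Reg3b the shares were 21.9%, 17.4% and 17.6%, then 12 of 60 cells in the ungated library, and 0% to 4.69% at 5 days. The 54 cells with Reg3g at 10 or more had medians of 13.7 per 10000 for stem cell markers, 12.5 for cell cycle markers and 6.56 for absorptive markers, against 14.2, 15.6 and 19.8 in the other 385. Most of the 54 cells came from 8-week libraries, whose cells of no class had lower absorptive markers than those at 5 days, and the part of the library mix in these medians was not tested. The level of 10 was chosen after the values were seen. Over all its cells, the ungated 8-week library also held the highest Reg3b level of any library. An absorptive cell, outside the cells of no class, held 39.4% of its Reg3b transcripts.

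Between traced and non-traced cells of no class at 8 weeks, Reg4 was lower in traced cells, at 0.943 ± 0.415 against 4.79 ± 1.20 per 10000 in non-traced cells (SD, n = 3 and 2; 72 and 9 cells; log2 fold change -2.51 ± 0.31 SE; adjusted p = 3.05e-04, edgeR), where 2.01% of 5369 genes were called. Of the 9 non-traced cells, 3 held 98.7% of the Reg4 transcripts, and these 3 had 399 to 686 Paneth marker transcripts per 10000, below the Paneth cut of 1000, against 5.68 to 61.9 in the other 6. They also had 146 to 176 goblet marker transcripts per 10000, below the goblet cut of 250, against 0.672 to 33.9 in the other 6. With all cuts at 0.5 times their level the difference was 1.72 (adjusted p = 0.869). On plain totals the median of all genes moved to 0.11. This comparison too was added after the data had been examined.

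The other genes of epithelial defence and of the interleukin 22 and STAT3 response were taken from a list of 37 genes, of which 34 were in the files; Ang4 and Lyz1 are also Paneth markers used for the cut. In absorptive cells against cells of no class, 4 of 8 tested genes rose (Reg3a by 5.20, Stat3 by 1.52, Lypd8 by 1.37 and Pigr by 0.57, log2) and Dmbt1, a scavenger receptor of mucosal surfaces, fell by 1.44, where 21.3% of all genes were lower. The list median was 0.26 and that of all genes tested -0.03. In Paneth cells 6 of 11 rose: Ang4 (8.31), Lyz1 (7.16), Itln1 (6.50), Pla2g2a (5.69), Il10rb (1.39) and Stat3 (1.37), where 18.6% of all genes were higher. These values rest on TMM scaling: Il10rb averaged 0.481 ± 0.151 per 10000 in Paneth cells and 0.377 ± 0.129 in cells of no class, and Stat3 0.616 ± 0.436 and 0.551 ± 0.365 (SD, n = 8 libraries). Ang4, Lyz1 and Pla2g2a encode secreted antimicrobial proteins and Itln1 an intestinal lectin. Dmbt1 fell by 3.29 there, where 15.6% of all genes were lower, and the list median was 1.37 against -0.08.

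In goblet cells 3 of 6 tested genes of the list rose (Itln1, Lypd8 and Lyz1) and Dmbt1 fell, where 38.5% of all genes were called in either direction, with a median of 0.71 against -0.02. In endocrine cells 2 of 8 rose (Jak1 and Stat3) and 4 fell (Ang4, Dmbt1, Lypd8 and Pigr), where 18.4% of all genes were higher and 21.8% lower, with a median of -0.81 against -0.01. In tuft cells Il10rb, a subunit of the interleukin 22 receptor, rose by 1.64 and 7 of 10 fell, where 21.2% of all genes were higher and 21.9% lower, with a median of -1.55 against -0.03. Between Paneth and goblet cells 4 of 6 were higher (Ang4, Itln1, Lyz1 and Pla2g2a) and Lypd8 was lower in Paneth cells, where 22.5% of all genes were called in either direction.

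Over time, 8 of 16 tested genes of the list were higher in the 8-week traced CD24+ cells of no class than at 5 days, among them Stat3 (0.77), Jak1 (0.65), Tifa (1.07) and Pigr (0.29), and with them the Paneth products Ang4, Itln1, Lyz1 and Pla2g2a. Dmbt1 and Reg3a (-3.77) were lower. Of all genes 9.86% were higher and 11.6% lower there. Over all cells 7 of 19 were higher and 3 lower, among them Stat3 (1.37) higher and Reg3a (-5.56) lower, where 18.7% of all genes were higher and 18.4% lower. Between traced and non-traced cells at 8 weeks, 0 of 21 genes were higher and Fut2 (-1.59) and Il10rb (-0.75) were lower over all cells, where 1.56% of all genes were higher and 2.67% lower. Tuft cells, in which Il10rb was higher, made up 20.8% of these traced and 54.4% of these non-traced cells. The part of the tuft share in the Il10rb difference was not tested. In Paneth cells 0 of 11 and in endocrine cells 0 of 10 were called, by edgeR. In cells of no class Ang4, Itln1, Lyz1 and Pla2g2a were lower in traced cells (4 of 14), the comparison in which 3 of 9 non-traced cells held 399 to 686 Paneth marker transcripts per 10000.

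The genes whose levels followed each member most closely were ranked by Pearson's r over 41 sums of library and class from 13 libraries and 10367 genes, as a description; the sums share libraries and depth. For Reg1 they were Mme (0.96), Reg3a (0.96), Smlr1 (0.95) and Slc51a (0.94); Mme is a brush border peptidase. For Reg3b they were H2-Ab1 (0.75), Sectm1b (0.74), H2-Eb1 (0.74), H2-Aa (0.73) and Mgam (0.72). For Reg3g they were Reg3b (0.70), H2-Aa (0.69), H2-Eb1 (0.69), Cd74 (0.64) and Irf8 (0.64). H2-Aa, H2-Ab1, H2-Eb1 and Cd74 encode MHC class II and its invariant chain. For Reg4 they were Mmp7 (0.82), Habp2 (0.78), Lyz1 (0.78), Nucb2 (0.77) and Itln1 (0.77), of which Mmp7 and Lyz1 are Paneth markers used for the cut. Reg4 had r of -0.40 with Reg1, -0.28 with Reg3b and 0.08 with Reg3g.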

How the data were processed

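Per the values, the deposited expected counts are transcripts per gene and cell, corrected by the authors for collisions among 256 molecular barcodes and not scaled between cells; no Reg value was saturated. BWA 0.6.2-r126 and mm10 are named in the submitters' processing notes. Gene models are not given in the sources used here. Library totals were 421675 to 1385266 transcripts and spike-in RNA took 1.31% to 16.6%. Spike-ins were left out of all totals. The combined table served only to match 672 cells in 7 sets and to group the 8-week CD24+ libraries for the batch block. It put 0 columns of other series into any step. The batches were read from set names, which carry II for replicates 2 and 3 and not for replicates 1. No label names a batch.

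The members and gene lists were chosen with earlier results of these data known, and the class cuts (summed marker genes, Ghrl left out) after the marker levels, but not the Reg levels, were seen. No doublet detection was run. Expected counts were rounded and summed per library, or per library and class with at least 3 cells, and tested with edgeR 4.0.16 in R 4.3.3 (quasi-likelihood, TMM, filterByExpr, Benjamini-Hochberg over all genes tested, threshold 0.05). Classes were compared with the library as a block. The fit recovered 73 of 100 simulated log2 changes of 2 over all 8-week CD24+ cells (8762 genes) and 98 of 100 for Paneth against no class (3234 genes). Named genes were the 4 members, the list genes past the threshold, and the 5 closest genes by likeness (log2 of level + 0.1), of which 1 is not reported here. Alternatives were DESeq2 1.42.0, other scalings, filters and cuts, left-out libraries, and replicate and batch blocks. Plain totals (library totals without TMM factors) and leaving out the largest barcode were added after the data had been seen. Replicate numbers were not taken to pair libraries.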

Additional observations from a re-analysis of the deposited data

Results flagged for a closer look

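Only the 5-day libraries formed a group of at least 4, over all cells and over cells of no class. No value there lay far from the others for any member by Dixon's test (8 sets of values tested). For 2 class differences, every library of one 8-week CD24+ group moved one way and every library of the other the opposite way. Reg3b in Paneth cells minus cells of no class was -4.38 per 10000 on average in traced libraries (-5.48 to -3.71, n = 3) and 0.911 in non-traced libraries (0.717 to 1.11, n = 2). Reg4 in endocrine cells minus cells of no class was 61.7 per 10000 in traced libraries (33.9 to 94.3) and -2.59 in non-traced libraries (-4.40 to -0.785). The difference between the groups was not tested for either gene, and the non-traced cells of no class number only 9.

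Signals also appeared in libraries that enter no comparison between groups. Reg4 was 3.54 per 10000 in the 3-week traced CD24+ library, against 0.136 in the 3-week non-traced library, whose label is in doubt. Goblet cells made up 46.8% of the cells in that traced library and 10% in the non-traced one, and their part in the difference was not tested. In the traced library 1 cell held 41.7% of the Reg4 transcripts. In the ungated 8-week traced library Reg3b was 18.9 and Reg3g 20.04 per 10000, against 1.24 to 3.77 and 6.53 to 18.8 in the 8-week non-traced CD24+ libraries, which also differ in the gate. In the ungated library 1 absorptive cell held 39.4% of the Reg3b and 29.3% of the Reg3g transcripts. Without that cell Reg3b was 11.8 and Reg3g 14.6 per 10000, and this Reg3g level lies inside the non-traced range.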

How the results depend on the processing

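Of the member values recomputed under an alternative, 566 kept their direction and their side of the threshold, 27 passed it newly, 11 no longer passed it and 23 changed sign; none of those 23 was past the threshold before, except Reg4 between traced and non-traced cells of no class at 8 weeks. The calls of Reg1, Reg3b and Reg3g in absorptive cells, of Reg4 in Paneth and goblet cells against no class, of Reg3g in endocrine and tuft cells, of Reg4 between traced and non-traced endocrine cells, and of Reg1 and Reg4 over all cells and Reg1 and Reg3g in cells of no class between 8 weeks and 5 days held under every alternative run. Without the filter on low counts the number of members called was 2 (0 with it) for 8-week traced against non-traced CD24+ over all cells, 4 (2) for 8 weeks against 5 days over all cells, 4 (2) for Paneth and 3 (1) for goblet against no class, and 2 (0) for traced against non-traced Paneth cells. Goblet cells against no class gave 2 members with cuts at 0.5 times the level and in 8-week libraries only. Paneth against goblet cells gave 1 on plain totals, in 5-day and in 8-week libraries. Reg3g lost its call there on plain totals and at 8 weeks, and Reg4 at 5 days. Traced against non-traced Paneth cells gave 1 member with cuts at 0.5 times and 2 at 2 times the level, and 1 (Reg3b) under the batch block. Traced against non-traced cells of no class gave 0 with cuts at 0.5 times, where Reg1, Reg3b and Reg4 changed sign to 6.09, -0.56 and 1.72. Leaving out 1 library moved these counts between 0 and 1 for traced against non-traced over all cells (1 without non-traced replicate 1), between 1 and 2 for goblet cells (2 without the 3-week non-traced library), between 0 and 2 for Paneth cells (1 without traced replicate 2, 2 and 1 without non-traced replicates 1 and 2) and between 1 and 2 for cells of no class. The cause was not tested.

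Sign changes of values that were not past the threshold were as follows. Reg4 in cells of no class, 8 weeks against 5 days, was -0.03 and became 0.14 with DESeq2, 0.10 on plain totals, and 0.92 and 0.58 with cuts at 0.5 and 2 times; leaving out 1 library gave -0.33 to 0.57. Leaving out 1 library gave -0.50 to 1.11 for Reg3b and -0.13 to 6.36 for Reg1 over all cells, traced against non-traced, -0.94 to 0.072 for Reg3b in Paneth cells against no class, -0.48 to 0.47 for Reg3g in traced against non-traced endocrine cells (0.12 under the batch block), and -0.43 to 3.41 for Reg3b and -1.59 to 6.22 for Reg1 in traced against non-traced cells of no class.

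A replicate block gave 1 called member in traced against non-traced Paneth cells (Reg3g, adjusted p = 0.0411), 0.23 for Reg3g in endocrine cells and 0.51 for Reg4 in cells of no class between 8 weeks and 5 days, where it also called Reg3b (2.60, adjusted p = 2.33e-09). Equal numbers correlated at -0.05 to 0.28, and they were not taken to pair libraries.

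Over all genes, traced against non-traced gave 371 calls with edgeR, 200 with DESeq2 and 811 without the filter, and 55 without non-traced replicate 1. Paneth cells gave 1105 calls, 2843 on plain totals, 2146 without the filter and 345 in 5-day libraries; goblet cells 873, 2239 without the filter and 325 at 5 days; endocrine cells 1202, 3072 without the filter and 98 at 5 days; tuft cells 1573 and 2877 without the filter; Paneth against goblet 133, 567 on plain totals and 316 without the filter. Traced against non-traced cells gave 4 calls in Paneth and 6 in endocrine cells, 23 and 78 without the filter, and 108 in cells of no class, 238 without the filter and 2 with cuts at 0.5 times. On plain totals goblet cells gave 369 higher and 826 lower genes, in place of 499 and 374. Absorptive cells of 8-week libraries and tuft cells of 5-day libraries were too few to be fitted. Depth limits the shares: thinned to 3000 transcripts, 16 of 24 class shares left the interval of the full data, and 5 in place of 7 reached 50%.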

Other observations

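Reg3a, another gene of the Reg cluster, had 378 transcripts in 97 cells and was found in 22 of 30 absorptive cells at 8.36 per 10000, against 0.264 in cells of no class and 0 in endocrine cells. Reg3d had 8.02 transcripts in 7 cells and Reg2 had 1.00 in 1 cell. The 27 cells of barcodes 1 to 48 of 5-day replicate 4 included 1 with 128 Reg3b transcripts per 10000 although their median was 0, while the 41 cells of barcodes 49 to 96 held 1.22 to 12.96 each. The largest barcode, in 8-week non-traced CD24+ replicate 1, held all 15.5 Reg1 transcripts of its library, 164 of 760 of Reg3g and 77.7 of 873 of Reg4.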
